A study of Homo sapiens with 8 samples.

Results

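ER binding was described at 7 cancer-associated genes of chromosome arm 20q, ZNF217, BCAS1, CYP24A1, PFDN4, NCOA3, AURKA and BCAS4, out of 62663 genes in the annotation. The genes were chosen by name. A peak was counted when it overlapped a gene body or the 50 kb on either side of it, and it was given to the member whose start was nearest to its summit. The windows covered 1.09 Mb of GRCh38 and held 358 of the 35834 ER peaks listed on chromosomes 1 to 22, X and Y. Merging overlapping peaks of the 4 libraries gave 247 sites at these genes, of 33734 sites in all.

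The cells were LY2, an established ER+ breast cancer line derived from MCF-7 that grows in the presence of endocrine therapy. All libraries came from cells that were kept in medium without 4-hydroxytamoxifen and depleted of serum for 24 h, transfected for 48 h, and then exposed for 1 h to β-estradiol at 1 µmol/L. The control condition received siCtrl (replicates 2 and 3) and the other condition received siCDK12, an siRNA pool against the transcriptional kinase CDK12 (replicates 3 and 4). There was no library without estradiol, all cells were of 1 line, and neither the labels nor the files say whether the replicates were separate cultures, so that any p-value measures only the spread between these samples. The question was whether ER binding at these genes differed after CDK12 was depleted.

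The 20q13 region is gained in many breast tumors and in MCF-7 cells. ZNF217 encodes a zinc finger transcription regulator that can act as an oncogene, NCOA3 encodes a coactivator that ER recruits through its ligand-binding domain (also called AIB1 or SRC-3), and AURKA encodes a kinase of the mitotic spindle. BCAS1 and BCAS4 were named for their amplification in breast carcinoma, CYP24A1 encodes the mitochondrial enzyme that breaks down active vitamin D, and PFDN4 encodes a subunit of the prefoldin chaperone. Estradiol-bound ER binds DNA as a dimer at the estrogen response element (ERE), a palindrome with a pair of arms, or is brought to DNA by other factors such as AP-1, and it often does so far from the genes it controls.

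The clearest ER binding at the 7 genes lay in a stretch between the starts of BCAS1 and PFDN4, and it was listed in siCtrl alone. At 3 places there, 1 assigned to PFDN4 and 2 to CYP24A1, both siCtrl libraries had pileups of 84 to 226 fragments, and neither siCDK12 library had a peak. Elsewhere at these genes the folds were low, most sites were listed in 1 library, and, except at AURKA, the median local background of the peaks was 14.1 to 26.7 times the base level of the library, by gene and library. The number of peaks at these genes was 0.772 times as high in siCDK12 as in siCtrl, with 2 libraries per condition. Over the whole lists it was 0.629 times as high.

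The reference sequence of the 3 strong siCtrl sites is shown because the results turn on them. Each is 201 bases of GRCh38, plus strand, centred on the highest summit. Capitals mark the ERE (GGTCANNNTGACC, at most 1 of the 10 fixed bases mismatched) at the PFDN4 site. At the CYP24A1 sites they mark matches to the AP-1 pattern (TGANTCA, with any base at N).
PFDN4 upstream site, chr20:54195391-54195591: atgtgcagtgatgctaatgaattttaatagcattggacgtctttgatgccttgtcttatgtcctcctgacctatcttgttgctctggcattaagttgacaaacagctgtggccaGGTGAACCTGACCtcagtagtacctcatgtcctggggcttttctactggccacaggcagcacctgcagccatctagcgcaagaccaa
CYP24A1 first downstream site, chr20:54149174-54149374: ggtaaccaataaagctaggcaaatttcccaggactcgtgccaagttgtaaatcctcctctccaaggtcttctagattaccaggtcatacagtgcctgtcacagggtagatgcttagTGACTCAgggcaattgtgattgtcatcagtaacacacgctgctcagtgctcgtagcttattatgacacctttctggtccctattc
CYP24A1 second downstream site, chr20:54123774-54123974: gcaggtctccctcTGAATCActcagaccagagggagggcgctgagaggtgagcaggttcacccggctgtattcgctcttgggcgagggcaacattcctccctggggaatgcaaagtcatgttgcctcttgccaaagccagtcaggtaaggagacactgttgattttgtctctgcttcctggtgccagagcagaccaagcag

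The site upstream of PFDN4 (chr20:54195365-54195630, intergenic) had a pileup of 226 fragments in siCtrl replicate 2 and of 198 in siCtrl replicate 3, with folds over local background of 7.97 and 6.12. Its summit was 12596 bp before the start of PFDN4, and it ranked 13th by -log10 q in both siCtrl libraries. The element at chr20:54195505-54195517 differed from the ERE by C4G, with positions counted from 1 at the 5′ end of the palindrome, and its centre was 20 bp from the summit. No siCDK12 library listed a peak there. From the median background of the siCDK12 peaks within 100 kb, a pileup of 36 fragments in replicate 3 and of 34 in replicate 4 would have reached the p of 0.001 that the lists extend to. The highest siCDK12 pileups listed within 100 kb were 64 and 57 fragments. Both siCtrl pileups were therefore above every pileup listed around the site in siCDK12, although the siCDK12 level at the site itself is known only to have stayed unlisted.

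CYP24A1, whose 3′ end faces the start of BCAS1, had 2 strong sites beyond that end. The first (chr20:54149175-54149368, intergenic, 24712 bp downstream of the gene's start) had 114 and 116 fragments and folds of 4.57 and 2.55 in siCtrl replicates 2 and 3. It held an AP-1 motif with its centre 19 bp from the summit and also a single ERE arm (GGTCA). The second (chr20:54123749-54123976, intergenic, 50112 bp downstream of the start) had 92 and 84 fragments and folds of 3.44 and 2.07. It held a match to the looser AP-1 pattern, TGAATCA, 84 bp from the summit. The letters at the first site were TGACTCA. Neither site was listed in siCDK12. From the median background of the siCDK12 peaks within 100 kb, 36 to 38 fragments would have been enough. At the 2 summits themselves the siCtrl replicate 3 background was 44.9 and 40.1 fragments, above its 100 kb medians of 23.9 and 22.0. In siCtrl replicate 2 it was 24.1 and 26.1. The siCDK12 background at these sites is not known, so the level needed there may have been higher. The siCtrl pileups at each were above the highest siCDK12 pileup listed within 100 kb, 64 fragments.

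A further pair of CYP24A1 sites was listed in both siCtrl libraries alone and was weaker. The site in exon 12 of CYP24A1 (chr20:54154524-54154726) had 63 and 59 fragments and folds of 2.80 and 2.32, and an intergenic site (chr20:54131737-54132071) had 39 and 50 fragments. The siCDK12 libraries did have peaks at CYP24A1, 2 in replicate 3 and 4 in replicate 4, but none of them overlapped a siCtrl peak. Of the 14 sites assigned to CYP24A1, 4 were siCtrl-only sites and the other 10 were each listed in 1 library. No CYP24A1 site was listed in both conditions.

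PFDN4 had 20 sites, and beside the upstream one it had 3 that were listed in 3 libraries. At the site in intron 2 of PFDN4 (chr20:54214646-54214905) the pileup was 45 and 43 fragments in siCtrl and 64 in siCDK12 replicate 3, and the folds were 2.80, 2.53 and 3.61. The highest pileup there was thus in siCDK12, 6669 bp inside the gene whose upstream site was listed in siCtrl alone. At an intergenic site (chr20:54232499-54232882) the fold was 3.64 in siCtrl replicate 2 and 1.72 and 2.62 in the siCDK12 libraries. At the third (chr20:54255297-54255589, in an intron of the unnamed gene ENSG00000286229) the folds were 4.16 and 1.87 in siCtrl and 2.23 in siCDK12 replicate 3. A further 4 PFDN4 sites were listed in 1 library of each condition.

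**Figure D1:**
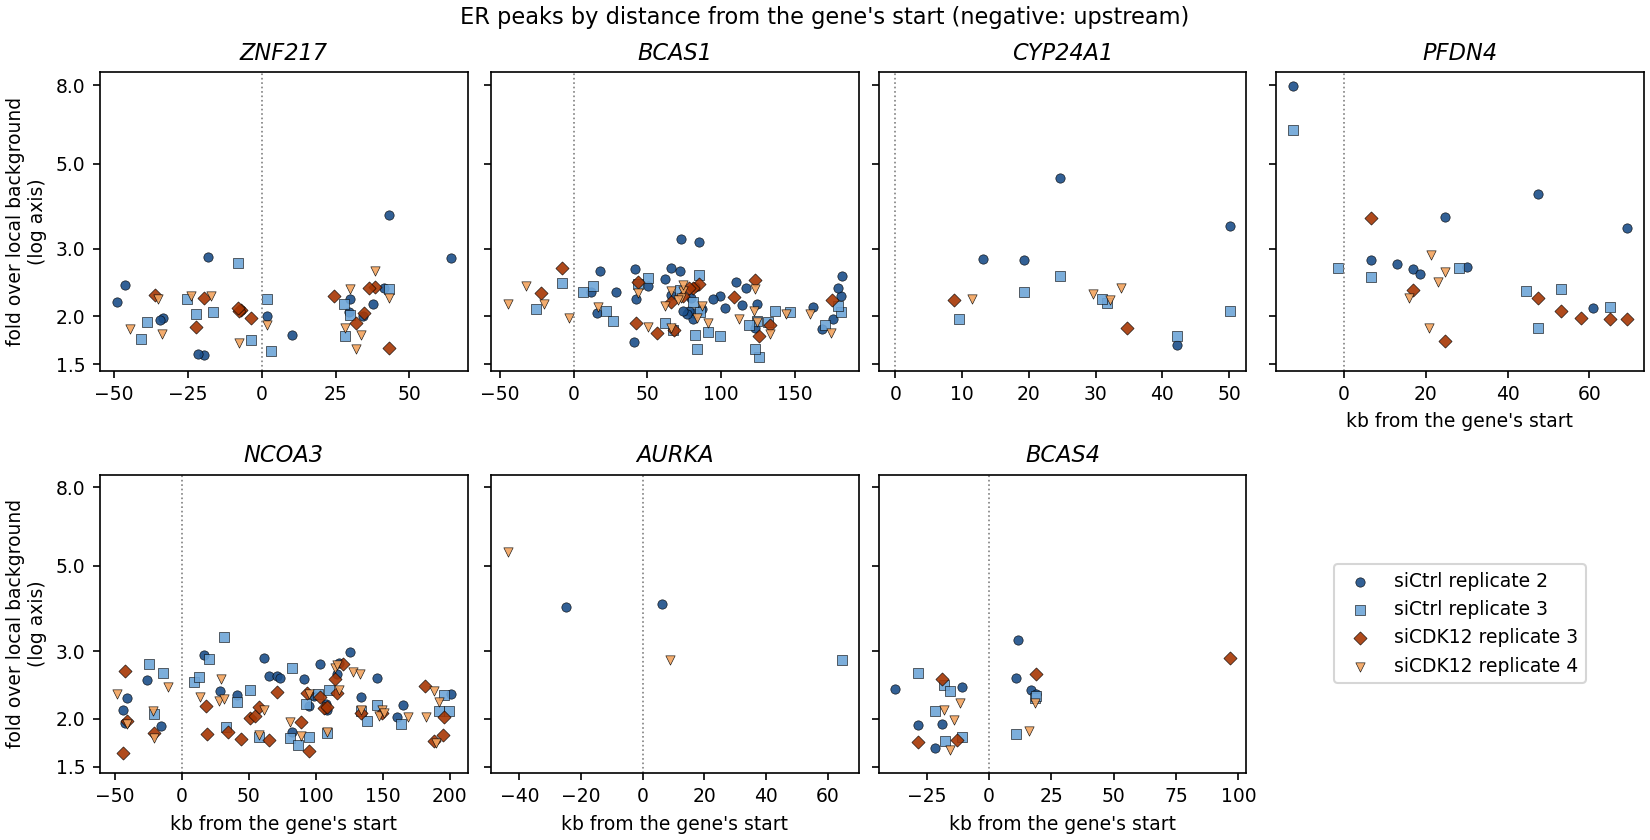
Each point is a listed ER peak, the strongest of its library at a site, placed by its distance in kb from the gene's start (negative is upstream, dotted line at the start) and by its deposited fold over local background on a log axis. Of all points, only the siCtrl pair upstream of PFDN4 (7.97 and 6.12) and 1 siCDK12 replicate 4 peak at AURKA (5.43) lie above a fold of 5.

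By the rule of a peak in both siCtrl libraries and neither siCDK12 library, 16 of the 247 sites (6.48%) were siCtrl-only sites, against 1.59% of all 33734 sites. In the other direction, 7 sites (2.83%) had a peak in both siCDK12 libraries alone, against 0.353% of all sites. Both shares were higher at these genes, and so was the share of sites listed in 1 library of each condition, 33 sites or 13.4% against 2.03%. Listing in more than 1 library was thus commoner here whichever libraries were paired. The share of single-library sites was 68.0% here and 95.0% over all sites. Among sites listed in both siCtrl libraries, 51.6% (16 of 31) lacked a siCDK12 peak at these genes, and 67.9% did over all sites. Among peaks with a q-value under 0.05, 12 siCtrl-only and 3 siCDK12-only sites were left of 221 member sites. With a library left out, so that 1 listing fewer was needed, the siCtrl-only sites were 57 of 194 without siCtrl replicate 2 and 71 of 207 without siCtrl replicate 3. The siCDK12-only sites were 54 of 221 without siCDK12 replicate 3 and 33 of 202 without siCDK12 replicate 4. The shares over all sites under these settings are not given, so these counts do not show a difference from the other sites.

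The local background went with these shares. Sites outside the windows whose background was over 10 times the base level of their library, 1278 sites on 7 chromosomes, were siCtrl-only in 6.42% and siCDK12-only in 2.35%. Of these sites, 618 were on chromosome 20 itself. The 240 member sites over the same level gave 6.67% and 2.92%. Over the remaining 32209 sites elsewhere the shares were 1.36% and 0.255%. The 20q13 genes had about the shares of these other sites of high background, many of them on the same chromosome. This comparison was chosen after the values were seen, and whether the background accounts for the shares was not tested.

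The siCtrl-only sites differed widely in how far they stood above the level needed for listing. At the 3 strong sites the lower siCtrl pileup was above every siCDK12 pileup listed within 100 kb. At the other 13 the siCtrl pileups were 39 to 63 fragments. By the estimate from the peaks within 100 kb, 37 to 53 were needed in the siCDK12 library with the higher limit. At none of the 13 was the lower siCtrl pileup above every siCDK12 pileup listed within 100 kb. At the 7 siCDK12-only sites the pileups were 45 to 89 fragments, and at none was the lower siCDK12 pileup above every siCtrl pileup listed within 100 kb.

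**Figure D2:**
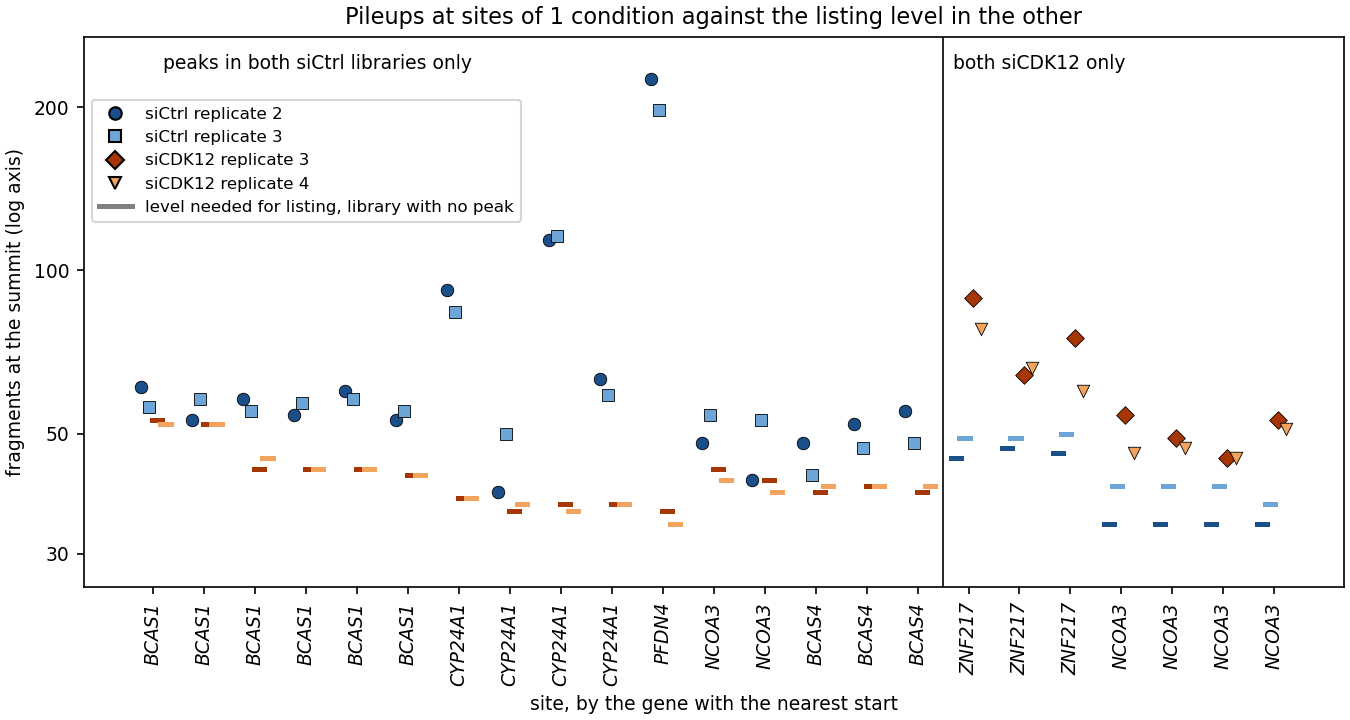
Points are summit pileups in fragments (log axis) at the 16 sites listed in both siCtrl libraries alone and the 7 listed in both siCDK12 libraries alone, and short bars are the pileup that would have been listed in each library without a peak, from the background around the site. The PFDN4 site and 2 CYP24A1 sites stand above the bars, with 84 to 226 fragments against 34 to 38. The bars are estimates from the listed peaks within 100 kb, as the background at the site itself is unknown where no peak was listed.

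BCAS1 had the most siCtrl-only sites, 6 of its 73. The strongest by fold (chr20:53998393-53998617, intron 4 of BCAS1) had 53 and 55 fragments and folds of 2.63 and 2.34. Another 3 lay in introns 7, 9 and 12, and a pair (chr20:53888997-53889186 and chr20:53890855-53891246) lay beyond the 3′ end with 53 to 61 fragments. No BCAS1 site was listed in siCDK12 alone in both libraries. The BCAS1 site with the highest -log10 q (chr20:53997715-53997985, intron 4) was listed in 1 library of each condition, with a fold of 3.19 in siCtrl replicate 2 and of 2.24 in siCDK12 replicate 4.

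BCAS4 had 3 siCtrl-only sites among 18, a pair upstream of the gene (chr20:50772976-50773178 and chr20:50783806-50784149) and 1 in intron 1 (chr20:50805446-50805711). Their pileups were 42 to 55 fragments, and each held the ERE arm GGTCA within 100 bp of the summit. That arm was found at 34.0% of the member sites and at 36.5% of all sites. The strongest BCAS4 peak by -log10 q (chr20:50806484-50806639, intron 1, fold 3.20) was listed in siCtrl replicate 2 only. At 2 further sites (chr20:50766213-50766442 and chr20:50813755-50814058) both siCtrl libraries and siCDK12 replicate 3 had a peak. At the first the pileup was 43 and 58 fragments in siCtrl and 68 in siCDK12 replicate 3, and at the second it was 33, 43 and 37.

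ZNF217 had no siCtrl-only site and 3 siCDK12-only sites among 40. The strongest (chr20:53571453-53571657, intron 5 of ZNF217, also inside the unnamed gene ENSG00000197670) had 89 and 78 fragments and folds of 2.39 and 2.63 in siCDK12 replicates 3 and 4. In siCtrl, by the median background of the peaks within 100 kb, 45 and 49 fragments would have been listed there. The highest siCtrl pileups within 100 kb were 76 and 79, so that the lower siCDK12 value lay inside the range of the siCtrl peaks around it. A site in intron 3 (chr20:53577835-53578042) had 64 and 66 fragments, and the pileups at all 3 were 60 to 89.

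NCOA3 had sites of both kinds, 2 in siCtrl alone and 4 in siCDK12 alone among 77. The siCtrl-only sites lay in intron 1 (chr20:47542588-47542908, 48 and 54 fragments) and exon 18 (chr20:47647067-47647402, 41 and 53 fragments). The siCDK12-only sites lay in intron 2 (chr20:47590664-47590990 and chr20:47615891-47616163), in exon 20 (chr20:47651085-47651280) and in intron 4 of the neighbouring gene SULF2 (chr20:47690151-47690401). Their pileups were 45 to 54 fragments and their folds 1.75 to 2.71. The NCOA3 site with the highest -log10 q (chr20:47533668-47533897, intron 1) had a fold of 3.27 in siCtrl replicate 3 and of 2.25 in siCDK12 replicate 4.

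AURKA stood apart from the other 6 genes. It had 5 peaks in all, 2 and 1 in the siCtrl libraries, 0 and 2 in the siCDK12 libraries, each at a site of its own, so that no AURKA site was listed in 2 libraries. Their folds, 2.84 to 5.43, lay around the median folds of all peaks, but their pileups were 7 to 14 fragments, and 3 of the 5 had a q-value under 0.05. The highest by -log10 q (chr20:56436006-56436164, fold 5.43, 14 fragments in siCDK12 replicate 4) was in intron 1 of the neighbouring gene CASS4. An absent peak at AURKA says that the pileup stayed under the listing level, not that ER was absent.

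The local background under the peaks set AURKA apart as well. It is given here as the background at the summit over the lowest level that at least 50 peaks of the library shared. Its median was 14.1 to 26.7 times that base level at each of the other 6 genes in each library, highest at ZNF217 (26.5, 26.4, 26.7 and 25.8) and lowest at PFDN4 (14.4, 16.9, 16.9 and 14.1). At AURKA it was 1.51 to 2.47 times, near the median of all peaks (1.09 to 1.64 times). The conditions overlapped at ZNF217, NCOA3, PFDN4 and BCAS4. The median was lower in both siCDK12 libraries at CYP24A1 (22.5 and 21.4 in siCtrl, 18.5 and 18.6 in siCDK12) and at BCAS1 (23.3 and 21.6, against 20.7 and 21.3). Both genes also had fewer siCDK12 peaks, as had ZNF217 and BCAS4, where the medians overlapped. The CYP24A1 medians rest on 5 and 7 siCtrl peaks and on 2 and 4 siCDK12 peaks. Those peaks lay at different sites in the 2 conditions, so the medians do not compare the same places. Of the member peaks, 97.2% to 100% had a background over 3 times the base level, against 9.61% to 16.4% of all peaks. DNA copy number was not measured in these files, and its part in the background was not tested.

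**Figure D3:**
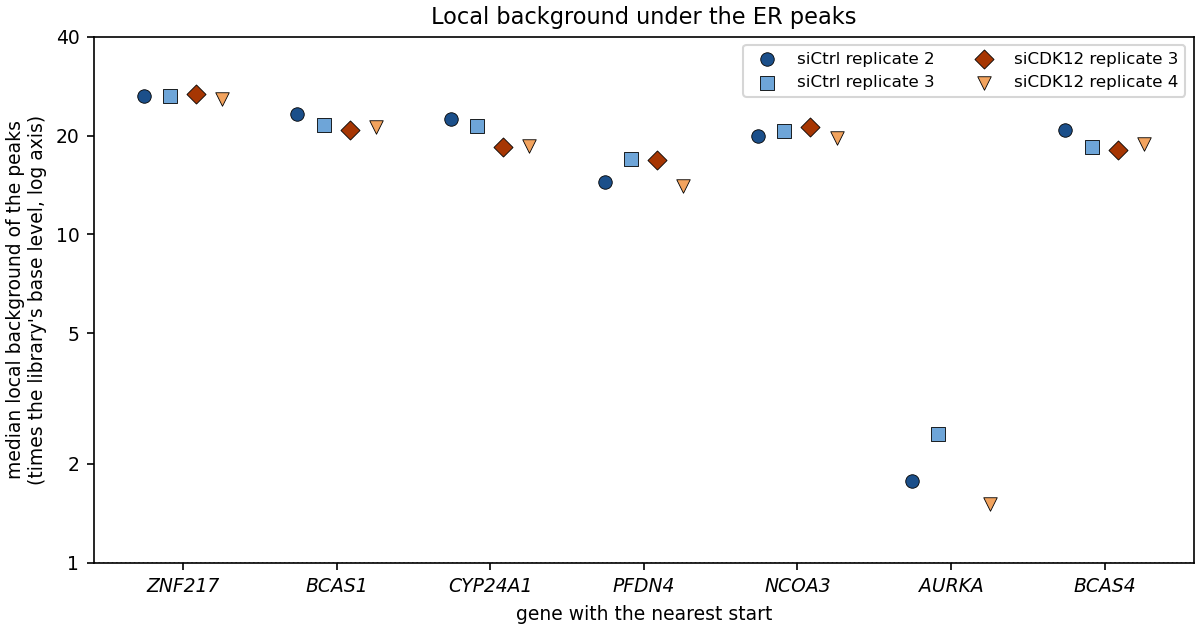
Each point is the median local background of a gene's ER peaks in 1 library, as a multiple of the library's base level, on a log axis. The other 6 genes lie between 14.1 and 26.7 in all 4 libraries, and AURKA lies between 1.51 and 2.47 with no point for siCDK12 replicate 3, which had no peak there.

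The raised background came with high pileups and low folds. The median pileup of member peaks was 52, 53, 55 and 52 fragments in siCtrl replicates 2 and 3 and siCDK12 replicates 3 and 4, while over all peaks it was 8, 10, 10 and 10. The median fold of member peaks was 2.32, 2.09, 2.09 and 2.15, against 3.97, 3.89, 3.89 and 3.85 over all peaks. Peak density was 98.7, 85.9, 65.8 and 76.8 per Mb in the windows and 4.89, 2.23, 2.15 and 2.33 per Mb over the genome.

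In the windows, siCtrl replicates 2 and 3 had 108 and 94 peaks, and siCDK12 replicates 3 and 4 had 72 and 84. The siCDK12 counts were both below the siCtrl counts. The means were 101 ± 9.90 and 78 ± 8.49 (SD, n = 2 per condition), a ratio of 0.772, with p = 0.333 in a two-sided exact permutation test, the smallest p that 2 libraries against 2 can give. With a q-value under 0.05 siCtrl had 101 and 74 peaks, and siCDK12 had 57 and 71.

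The whole lists also differed in length, with 15106 and 6888 peaks for siCtrl against 6633 and 7207 for siCDK12, a ratio of 0.629. As a share of the library, the member peaks were 0.715% (95% exact Clopper-Pearson interval 0.587% to 0.863%) and 1.36% (1.10% to 1.67%) in siCtrl, and 1.09% (0.850% to 1.37%) and 1.17% (0.931% to 1.44%) in siCDK12. The siCDK12 shares lay between the siCtrl shares, the ratio was 1.08, and the exact permutation p was 1. These intervals cover counting error only. Without siCtrl replicate 2, which had the longest list, the ratio of shares was 0.825. The difference in number at these genes cannot be told apart from the length of the lists.

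By gene, 4 of the 7 had fewer peaks in both siCDK12 libraries than in either siCtrl library, and 1 had more. Over all 4565 genes with at least 5 peaks in the same kind of window, these shares were 17.8% and 3.88%. There, every peak that overlapped a window was counted, without assignment to the nearest start. Counted that way, the members also gave 4 and 1. The genes were not matched to the members in number of peaks, so the shares are not a like comparison. Among 16 other genes of 20q, the counts of DOK5 (61 and 43 against 31 and 37), BMP7 (30 and 42 against 29 and 29), PREX1 (7 and 5 against 4 and 4) and PTPN1 (2 and 2 against 0 and 1) were also lower in both siCDK12 libraries. At the rest the counts touched or overlapped. Among these were the peak-rich genes ZMYND8 (20 and 28 against 15 and 25) and SULF2 (19 and 16 against 18 and 20). BCAS1 had 36 and 28 against 16 and 25, ZNF217 had 19 and 14 against 13 and 13, BCAS4 had 9 and 9 against 5 and 6, and CYP24A1 had 5 and 7 against 2 and 4. NCOA3 had 27 and 27 against 28 and 29, so its counts were higher in siCDK12 by 1 or 2 peaks. PFDN4 had 10 and 8 against 8 and 5, which touch. For each gene the exact permutation p was 0.333 or higher.

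**Figure D4:**
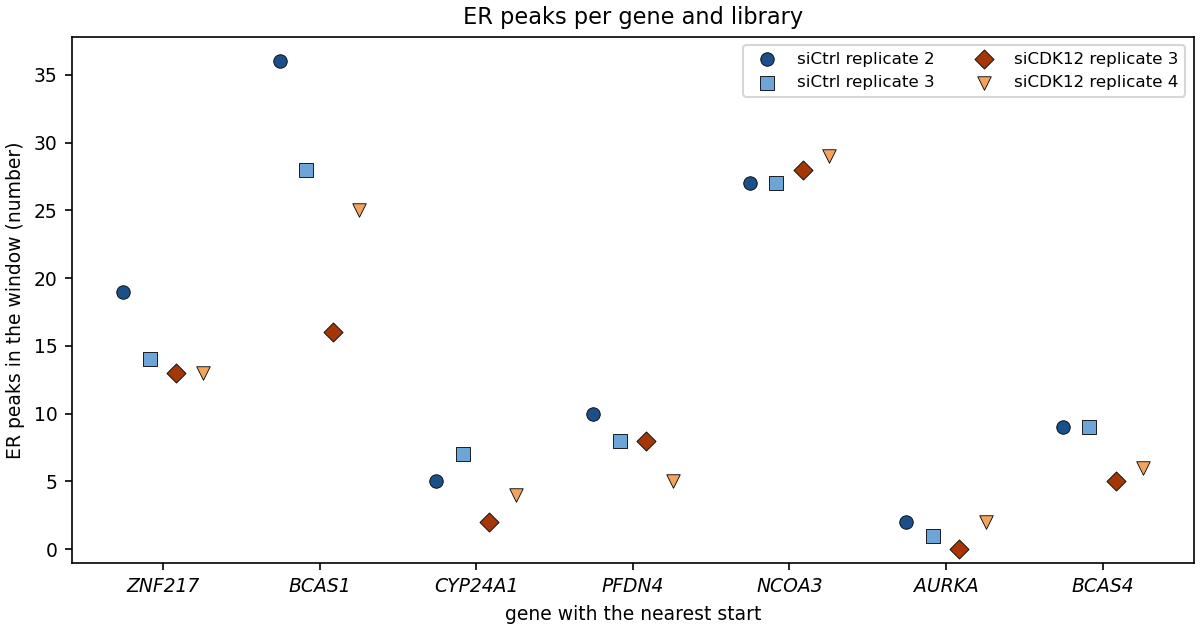
Each point is the number of listed ER peaks given to a gene in 1 library. The siCDK12 points lie below both siCtrl points at ZNF217, BCAS1, CYP24A1 and BCAS4, above them by 1 or 2 peaks at NCOA3, and touch or overlap them at PFDN4 and AURKA.

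A peak was listed in all 4 libraries at 5 sites (2.02%, against 0.249% of all sites). Of these, 3 were at NCOA3 and 1 each at ZNF217 and BCAS1. Not all of these peaks had a q-value under 0.05, a −log10 q of 1.30. In siCDK12 replicate 3 the −log10 q was 1.00 at NCOA3 (chr20:47596593-47596909) and 0.826 at ZNF217. In siCtrl replicate 3 it was 0.742 at BCAS1. At none of the 5 sites were both siCDK12 pileups below both siCtrl pileups. This was so at 58.3% of the 84 sites of the genome with a peak in all 4 libraries. At 2 of them both siCDK12 pileups were above, against 15.5%. The median log2 ratio of siCDK12 over siCtrl pileup was 0.12 at the 5 sites and -0.92 at the 84. By deposited fold it was 0.012 and -0.78. The 84 were not matched to the 5 in local background, so the shares and medians are not a like comparison. The 5 all had a background over 10 times the base level, and 44 of the 84 did not. At the 5 sites the mean pileup by condition was 50 to 68.5 fragments, over a mean solved background of 22.0 to 34.8. Whether the contrast holds among sites of like background was not tested. The median SD of log2 pileup between replicates at the 5 sites was 0.11, so the shift there was about the size of the replicate spread.

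At NCOA3, the first of these sites (chr20:47596593-47596909, intron 2) had 62 and 64 fragments in the siCtrl libraries and 66 and 71 in the siCDK12 libraries. The second (chr20:47610247-47610492, intron 2) had 38 and 64 in siCtrl, against 55 and 67 in siCDK12, with siCtrl replicate 2 the lowest. The third (chr20:47635376-47635670, exon 11) had 49 and 51 in siCtrl, against 55 and 48 in siCDK12. The conditions overlapped at the second and at the third, and the folds overlapped at all 3.

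The ZNF217 site (chr20:53566534-53566961, just beyond the 3′ end) had siCtrl pileups of 73 and 60 fragments and siCDK12 pileups of 55 and 68. Its pileups overlapped, but its folds did not, with 3.68 and 2.36 in siCtrl against 1.66 and 2.23 in siCDK12, as the solved background was higher in siCDK12 (31.4 against 22.0 fragments on average). At BCAS1 (chr20:53947434-53947778, intron 12) the pileups were 52 and 51 in siCtrl, against 61 and 63 in siCDK12, and the folds were 1.87 and 1.65 against 2.48 and 2.36. Both pileup and fold were thus higher in siCDK12 at BCAS1. The order at ZNF217 and at BCAS1 rests in part on a peak with a q-value above 0.05. The exact permutation p of the pileups was 0.333 to 1 at the 5 sites and 0.832 to 1 after Benjamini-Hochberg adjustment over them.

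**Figure D5:**
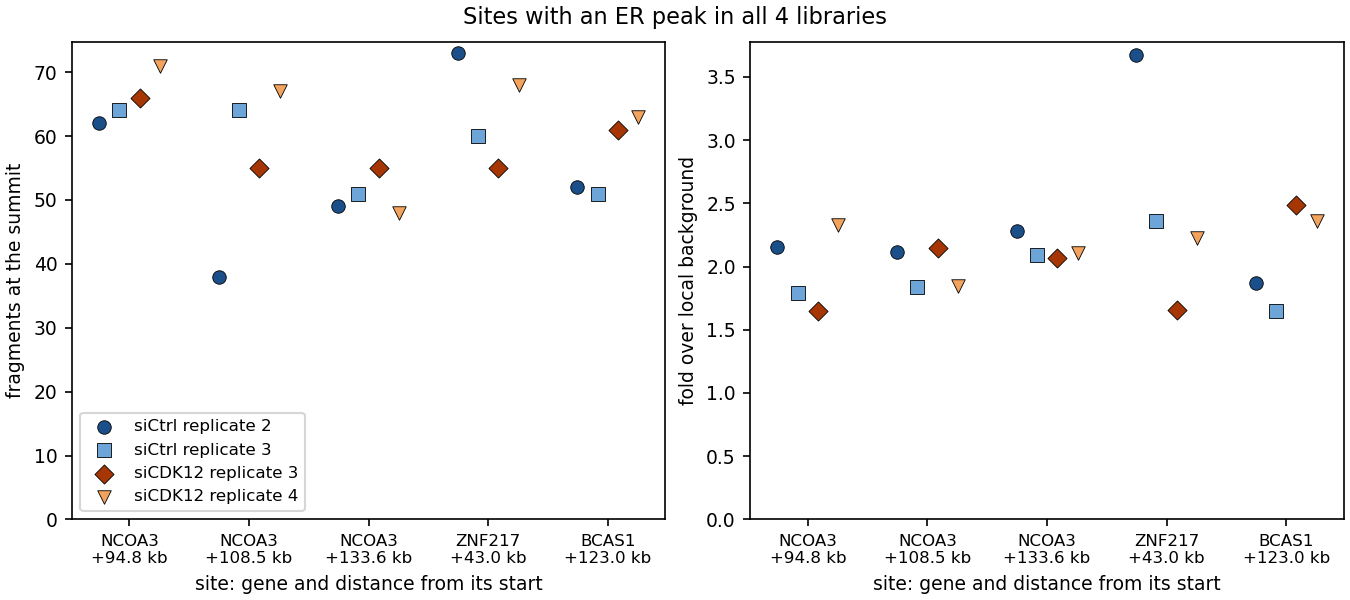
Summit pileup in fragments (left) and deposited fold (right) at the 5 sites with a peak in all 4 libraries, labelled by gene and distance from the gene's start. Both siCDK12 points are above both siCtrl points in pileup at the first NCOA3 site and at BCAS1, and in fold at BCAS1, and both are below in fold at ZNF217.

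A further 18 sites were listed in 3 libraries, 10 in both siCtrl libraries and 1 siCDK12 library and 8 in both siCDK12 libraries and 1 siCtrl library. BCAS1 had 7 of them, in exons 5 and 8 and in introns 4 and 7, with pileups of 43 to 77 fragments. In exon 8 of BCAS1 (chr20:53985211-53985479) the folds were 3.13 and 2.56 in siCtrl and 2.43 in siCDK12 replicate 3. NCOA3 had 4. The one at chr20:47617922-47618170 in intron 2 had folds of 2.61 in siCtrl replicate 2 and of 2.33 and 2.75 in siCDK12. ZNF217 had 2, and the one nearest to its start (chr20:53608059-53608932, 1755 bp inside the gene) had 76 and 73 fragments in siCtrl and 74 in siCDK12 replicate 4. That site lay outside the canonical ZNF217 transcript, with its summit 202 bp from the start of the unnamed gene ENSG00000235415. Over the 18 sites the folds ran from 1.72 to 4.16, and the 33 sites listed in 1 library of each condition had folds of 1.57 to 3.40 and pileups of 38 to 91 fragments.

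The siCtrl replicates shared more sites with each other than with either siCDK12 library, and the siCDK12 replicates did not share more with each other than with siCtrl replicate 3. Of the 106 siCtrl replicate 2 sites at these genes, 31 were also listed in siCtrl replicate 3, and 27 and 18 in siCDK12 replicates 3 and 4. Of the siCDK12 replicate 3 sites at these genes, 27.8% were also listed in siCDK12 replicate 4, and 37.5% and 31.9% in siCtrl replicates 2 and 3. Of the siCtrl replicate 3 sites, 33.7% were in siCtrl replicate 2 and 25.0% and 22.8% in siCDK12 replicates 3 and 4. Over all sites the same share for siCtrl replicate 3 was 11.4%, 4.79% and 4.46%.

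Sites close to a gene's start were few. Of the 247 sites, 5 had a summit within 5 kb of the start of the member, at ZNF217, BCAS1 and PFDN4, and the nearest was a siCtrl replicate 3 peak 1491 bp before PFDN4. For ZNF217 the start was the outermost one annotated, chr20:53609907. Its canonical transcript starts at chr20:53593839, and the ZNF217 sites counted here lay outside that transcript. RefSeq promoters were matched for 4 of the 7 genes (NCOA3, BCAS4, ZNF217 and PFDN4). No listed peak overlapped any of them. The nearest summit was 1390 bp from the middle of the PFDN4 promoter and 5869 to 10720 bp from the others.

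The ERE with at most 1 mismatch was found within 100 bp of the summit at 2 of the 247 sites (0.810%), against 1.63% of all sites. They were listed in opposite conditions, the PFDN4 site in both siCtrl libraries alone and the other in both siCDK12 libraries alone, with folds of 2.07 and 1.70. The single ERE arm GGTCA was found at 34.0%, against 36.5%. The AP-1 pattern TGANTCA, with any base at N, was found at 9.31% (23 sites), against 6.58%. The forkhead motif TGTTTAC was found at 2.02%, against 1.81%, and the GATA motif AGATAA at 6.07%, against 7.32%. All were searched on both strands, and GGTCA also forms part of the ERE. Of all member sites, 30.8% had 24-base words with a median of more than 1 genome copy, against 22.0% of all sites. Such repeated words were found at 4 of the 7 siCDK12-only sites, the 3 of ZNF217 among them, and at 3 of the 16 siCtrl-only sites. The words at the PFDN4 site and at both CYP24A1 strong sites had a median of 1 copy.

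The site upstream of PFDN4 was compared with 519 siCtrl-only sites outside the windows. The most alike by deposited fold in the 2 siCtrl libraries were a site 22941 bp from the start of JARID2-DT on chromosome 6 (folds of 7.88 and 5.95), a site 3561 bp from that of ENSG00000256955 on chromosome 12 (7.77 and 6.35) and a site 36459 bp from that of ENSG00000288538 on chromosome 11 (8.30 and 6.22). Their largest log2 differences from the PFDN4 site were 0.04, 0.05 and 0.06. None of the 3 held the ERE with at most 1 mismatch.

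Among 16 other genes of 20q, all had at least 1 peak in the same kind of window, with a median of 4 and a range of 1 to 172 over the 4 libraries. Peaks in all 4 libraries were listed at 5 of the 16, the number whose median background was also over 3 times the base level. They were ZMYND8, PREX1, SULF2, DOK5 and BMP7, of which SULF2 shared 46 of its 73 peaks with the windows of the members. SiCtrl-only sites were listed at 6 of the 16 genes, and siCDK12-only sites at 4.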

How the data were processed

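ER ChIP was sequenced in LY2 cells, and the peak lists of 4 ER libraries were used. No peak list of the 4 input libraries was used. According to the methods, the authors mapped quality-filtered reads with BWA to GRCh38 and called narrow peaks per library with MACS2 at a false discovery rate of 0.05. Whether the input served as the control is not given in the sources used here. The deposited lists hold peaks down to a MACS2 p-value of 0.001. All of them were used, with counts at q under 0.05 beside them. In the deposited files the fold is the ratio of pileup to local background at the summit, the significance is the −log10 of the p-value and of the q-value, and the score is 10 times the −log10 p-value, rounded down. No value is normalized between libraries. Read depth is unknown. The authors' differential analysis needs read counts and was not repeated.

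Pileup and background were solved from the fold and the Poisson p-value for 99.9944% of the peaks, to within 0.001 in −log10 p. Peaks were merged over libraries where they overlapped by at least 1 bp. Genes were those of GENCODE release 44, and all peaks lay within the GRCh38 reference. Motifs were searched within 100 bp of the highest summit, and 24-base words were counted on both strands of chromosomes 1 to 22, X and Y. Windows of different genes overlapped for 13 of the 358 peaks, which were counted once. Means were compared by two-sided exact permutation tests over 6 assignments. The functions were tested on simulated data. Python 3 with pandas, SciPy, pysam and statsmodels was used.

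All 7 genes were named. Sites were to be named when they were listed in at least 2 libraries, were the strongest of a gene or held an ERE. The 33 sites listed in 1 library of each condition, and part of those in 3 libraries, were given as counts and ranges. The position and sequence of the second site with an ERE are not reported here. The members and lists were chosen with earlier results of these data known. Alternative peak filters, flanks, overlap rules, assignments, values and element rules were tried, and each library was left out in turn.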

Additional observations from a re-analysis of the deposited data

How the results depend on the processing

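The ratio of peak numbers (0.772) stayed below 1 under every filter, flank and library left out, between 0.233 at −log10 q of at least 5 and 0.832. Leaving out each library gave 0.713 to 0.832. The ratio of shares (1.08) was 1.255 at −log10 q of at least 5, so the lower number there was not a lower mean share of the lists. It turned to 0.807 at a fold of at least 5. At that fold siCDK12 replicate 3 had 0 member peaks and each other library had 1. With a library left out the ratio of shares ranged from 0.825 to 1.57. The siCtrl-only sites (16) fell to 2 at −log10 q of at least 5, to 1 at a fold of at least 5 and to 9 with a 10 kb flank, and the siCDK12-only sites (7) fell to 3 at q under 0.05, to 1 and to 0 at the same stricter filters. With a library left out there were 21 to 71 siCtrl-only and 10 to 54 siCDK12-only sites. Without a library of the listed condition 1 listing fewer is needed, and without 1 of the other condition 1 absence fewer. Windows around summits gave 16 and 7. With the nearest start taken among all genes, 106 of the 358 peaks stayed with a member, while canonical transcript starts moved none. The median log2 ratio at the 5 sites in all 4 libraries was 0.012 by deposited fold and 0.11 by pileup minus background, and 0.04 to 0.17 with a library left out. The ERE count (2) was 0 with no mismatch, 26 with at most 2 mismatches (10.5%, against 11.3% of all sites) and 1 within 50 bp of the summit. No paired analysis was possible because replicate 3 is the only number found in both conditions. Unknown depth limits all of these values, and a place without a peak is known only to have stayed under its listing level.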
